A study of Mus musculus with 28 samples.

Results

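The genes described here encode the proteins of the cytosolic ribosome in mouse embryonic stem cells (ESCs). They were chosen by symbol, as Rpl or Rps followed by a number, with Rplp0, Rplp1, Rplp2 and Rpsa added and pseudogene and Rps6k symbols left out. A mean level of at least 5 CPM (a gene's read count scaled to the size of its library) was also required. The symbol rule matched 86 of the 24116 genes in the tables, and 84 of them passed the minimum in each library kit. Of these, 51 encode proteins of the large (60S) subunit and 33 proteins of the small (40S) subunit, and 83 are annotated as protein coding. The exception, Rps4l, is a transcribed pseudogene in RefSeq. Rpl3l and Rpl29 fell outside, at means of 0.602 and 0.841 CPM in the ribo-depleted kit and 1.38 and 0.287 CPM in the polyA kit. The lowest genes inside were Rpl39l at 11.4 and Rpl21 at 29.4 CPM in the ribo-depleted kit, and Rpl21 at 9.35 and Rpl30 at 17.2 CPM in the polyA kit. All 84 passed the filter on low counts in every fit, so none was left untested.

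RNA was sequenced from 28 libraries in 14 groups of 2. All groups were female RGd2 ESCs carrying a Rex1:GFPd2-IRES-Blasticidin reporter, a marker of the naive state, and all grew on gelatin in N2B27 medium. The ESC stage was held in 2i, which combines the Gsk3 inhibitor CHIR99021 with the Mek inhibitor PD0325901, and differentiation was started by taking 2i away. Zfp281 KO and WT cells were sampled at ESC, 16 h and 32 h with ribosomal RNA depletion (12 libraries, called ribo-depleted here). Ehmt1 KO, Zic2 KO, Ehmt1/Zic2 KO and WT cells were sampled at ESC and 32 h with mRNA selection (16 libraries, called polyA here). The replicates of a group were different lines: Zfp281_KO1 and Zfp281_KO2, Ehmt1_KO1 and Ehmt1_KO2, Zic2_KO1 and Zic2_KO2, and Ehmt1/Zic2_KO1 and Ehmt1/Zic2_KO2. The WT replicates were the lines WT and Zfp281_WT in the ribo-depleted kit and Ehmt1_WT and Zic2_WT in the polyA kit, in that order as replicate 1 and replicate 2. P-values therefore measure the spread between lines, and where 2 values of a group are given below, replicate 1 comes first. The kits used different lines and were never compared by a test.

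Ribosomal proteins assemble with ribosomal RNA in the nucleolus into the 40S subunit, which reads the mRNA, and the 60S subunit, which joins the amino acids. Their mRNAs are among the most abundant of growing cells, and most begin with a C followed by a run of pyrimidines, the TOP motif, through which mTOR signalling controls their translation. Some members have a paralog, often a copy made through an mRNA, that stands in for an X-linked parent in the male germline, where the X chromosome is silenced. Free Rpl5, Rpl11, Rpl23 and Rpl26 can bind Mdm2 and so stabilise p53 when ribosome assembly fails.

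Total counts ran from 18086421 to 36365192 per library, and the 84 genes took 3.32% to 4.92% of them. Ehmt1 lay at 17.6 to 31.4 CPM in the 8 polyA libraries labelled Ehmt1 KO or Ehmt1/Zic2 KO and at 80.3 to 154 CPM in the other 8. Zfp281 lay at 278 to 350 CPM in the 6 libraries labelled Zfp281 KO and at 238 to 340 CPM in their 6 WT libraries. Zic2 lay at 66.5 to 228 CPM in the 8 polyA libraries labelled Zic2 KO or Ehmt1/Zic2 KO and at 95.1 to 153 CPM in the other 8. The labels do not say which part of a gene was altered, so gene counts of Zfp281 and Zic2 do not check those labels. The ESC and 32 h libraries of the line Zfp281_WT stood apart. Of 1095 olfactory receptor genes, which ESCs do not use, 89.2% and 87% had a count in them. The other 6 libraries of that kit at those stages had 11.1% to 24.7%. The 16 h library of Zfp281_WT had 8.7%. The ESC-defining genes Pou5f1, Sox2, Sall4, Utf1 and Dppa4 were all above 1 CPM in every library and summed to 1689 to 2628 CPM. The 11 fibroblast markers summed to 7.3 to 29.89 CPM, with 2 to 6 of them above 1 CPM and 0 to 5 at 0.

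The start sites of the members are shown first, because the TOP motif is the start that ribosomal protein mRNAs are known for. The windows below run from 20 bases before the annotated start to 20 bases after it, 5′ to 3′ on the gene's strand (RefSeq, GRCm38.p6). Capitals mark a pyrimidine run, a C followed by at least 4 further C or T, that begins within 5 bases of the start.
Rpl27a, chr7:109519175-109519214, plus strand: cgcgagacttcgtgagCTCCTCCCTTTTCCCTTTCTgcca
Rpl15, chr14:18270967-18271006, minus strand: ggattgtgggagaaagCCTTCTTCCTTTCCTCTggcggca
Rpl35a, chr16:33056462-33056501, plus strand: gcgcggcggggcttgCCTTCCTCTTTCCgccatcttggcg
Rps6, chr4:86857348-86857387, minus strand: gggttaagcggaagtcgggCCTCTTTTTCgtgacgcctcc
Rpl28, chr7:4792945-4792984, plus strand: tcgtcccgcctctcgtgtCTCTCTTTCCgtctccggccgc
Rpl39, chrX:37085203-37085242, minus strand: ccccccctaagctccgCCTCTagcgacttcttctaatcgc
Such a run lay at the start of 30 of the 64 members found in the promoter table (46.9%), against 21.2% of the 27025 genes in it. The annotated start base was itself a C followed by at least 4 further pyrimidines, with or without more of the run before it, in 14 members (21.9%), against 3.01% of all genes. The median member promoter, taken as 250 bases before to 50 bases after the start, held 21.5 CpG dinucleotides, against 8 over all genes.

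The annotated starts of Rpl10, Rpl10l and Rpl39l held no such run. Whether the annotated starts of the members are those used in these cells was not tested. Rpl10 is the X-linked gene of a late-joining 60S protein and Rpl10l is its copy on chromosome 12 (66283379 to 66284401, minus strand). Rpl39 is the X-linked gene of a small protein that lines the exit tunnel of the 60S subunit, and Rpl39l is its copy on chromosome 16 (10170197 to 10174911, plus strand). The promoters of both copies are given because these genes had the largest differences described below. They run from 200 bases before to 20 bases after the start, with capitals for a match to GCGGGAA on either strand, a core of the sites that E2f factors bind.
Rpl10l, chr12:66284382-66284601, minus strand: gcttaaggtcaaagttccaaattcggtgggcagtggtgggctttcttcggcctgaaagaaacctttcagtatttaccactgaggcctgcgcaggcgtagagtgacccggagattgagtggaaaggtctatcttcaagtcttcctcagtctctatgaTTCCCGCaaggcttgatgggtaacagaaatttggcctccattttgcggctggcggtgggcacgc
Rpl39l, chr16:10170028-10170247, plus strand: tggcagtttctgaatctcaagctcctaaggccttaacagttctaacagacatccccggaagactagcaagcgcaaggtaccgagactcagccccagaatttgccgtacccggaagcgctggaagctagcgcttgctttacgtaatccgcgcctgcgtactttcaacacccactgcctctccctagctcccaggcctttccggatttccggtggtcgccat
GCGGGAA was found on either strand in 7 of the 64 member promoters (10.9%), against 5.29% of all genes, and the E-box CACGTG in 6 (9.38%), against 8.09%. TATAAA lay in the 40 bases before the start of 1 member (1.56%), against 2.78% of all genes. A match describes the letters only and says nothing of a factor.

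The members spanned a wide range of levels. Levels per kilobase of annotated transcript can be compared between genes only as far as that length is the one expressed. On this scale Rpl4, which lines the exit tunnel, averaged 2467 CPM per kb in the ribo-depleted kit and 2102 in the polyA kit. The stalk protein gene Rplp1 averaged 1946 and 1449 CPM per kb. At the low end Rpl39l averaged 14.2 and 102 and Rpl21 averaged 15.8 and 5.04 CPM per kb, with an annotated length of 1856 bases used for Rpl21. Across the 84 genes the log2 mean levels of the kits had a Pearson correlation of 0.78 and a Spearman correlation of 0.77, and the points share their gene models. The kits placed 20 members more than 2-fold apart. The log2 ratio of ribo-depleted to polyA level was 3.08 for Rpl30, 2.56 for Rpl39, 2.08 for Rpl36a and -2.85 for Rpl39l. These ratios join kit, line and genotype, which cannot be told apart.

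Many of these genes have processed pseudogenes and near-copies that can share reads. The median member had 51.7% of its transcript's 50-base stretches in no other annotated transcript of GENCODE M21, and 40 of 84 members were under 50%. Rpl10 stood at 14.6%, with 15 other genes holding a shared stretch, and Rps27 at 1.4%. Rps12 stood at 16.4%, Rps4x at 27.8% and Rps2 at 28.7%, with 71 other genes sharing stretches of Rps2. In contrast Rpl39l stood at 100%, Rpl10l at 92.4%, Rps20 at 92.4% (over an annotated length of 3706 bases) and Rpl4 at 83.5%. These shares too depend on the annotated transcript. Rpl21 stood at 73.8%, yet 82 other genes held a shared stretch. Rpl29, outside the minimum, stood at 33.2% with 84 such genes. How the authors' counting treated shared reads is not given in the sources used here. The values of Rps27, Rpl10, Rpl36a, Rps12, Rps4x, Rps2 and Rpl21, and the low level of Rpl29, are uncertain to that extent. Rps2, whose product sits at the mRNA entry of the 40S subunit, ranged from 7.72 to 152 CPM over the polyA libraries, and its group of Zic2 KO lines at ESC held 40.5 and 152 CPM.

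The first comparison asked how these transcripts changed when 2i was withdrawn. In the ribo-depleted kit few passed the test. The median of the 84 genes was 0.06 (log2 fold change, 32 h over ESC) in WT, where that of all genes was 0.02, and 0.08 in Zfp281 KO, where that of all genes was 0.09. In WT, 3 members were called higher and 0 lower at an adjusted p under 0.05 by edgeR's quasi-likelihood test, while 15% of all tested genes were called higher and 11% lower. In Zfp281 KO, 5 were called higher and 1 lower, against 14.2% and 10.4% of all genes. The direction of these medians rested on the scaling, since both fell below 0 with total counts as the only scaling (-0.01 in WT and -0.03 in Zfp281 KO). With that scaling WT had 4 higher and 5 lower calls and Zfp281 KO 3 higher and 5 lower, and with DESeq2 size factors Zfp281 KO had 0 higher and 1 lower. With DESeq2 WT had 1 higher and 3 lower. With the line as a replicate block, which removes the stable differences between lines, 24 members were called higher and 4 lower in WT, and 27 higher and 2 lower in Zfp281 KO. Those calls were 33.3% and 34.5% of the members, below the 39.7% and 39.8% of all genes called in the same fits. Without the line Zfp281_WT, which leaves 1 WT library a stage, the WT median was -0.06, against 0.00 over all genes.

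Rpl36al, a copy of the 60S gene Rpl36a, was called in both genotypes. It stood at 164 and 151 CPM in WT at ESC and at 195 and 198 CPM at 32 h, a log2 change of 0.32 ± 0.07 (SE, n = 2 lines a group, edgeR adjusted p = 0.011). In Zfp281 KO it went from 201 and 199 CPM to 250 and 248 CPM. Within each genotype both 32 h libraries lay above both ESC libraries. Rps27l, a paralog of Rps27 that p53 induces, went from 96.4 and 77.3 CPM to 128 and 106 CPM in WT (0.43 ± 0.12, edgeR adjusted p = 0.025). In Zfp281 KO it went from 110 and 112 CPM to 127 and 126 CPM, a change that did not pass the test (edgeR adjusted p = 0.31). Rpl35a, a 60S gene with one of the runs shown above, went from 62.7 and 47.0 CPM to 81.1 and 69.0 CPM in WT (0.45 ± 0.13, edgeR adjusted p = 0.032) and from 65.8 and 66.6 CPM to 92.0 and 88.0 CPM in Zfp281 KO (edgeR adjusted p = 0.034). In WT the call was lost in 1 of 4 fits with a library left out for Rpl36al (adjusted p up to 0.081) and in 2 of 4 for Rps27l (up to 0.14) and Rpl35a (up to 0.18). The other calls in Zfp281 KO were Rpl21, Rpl7l1 and Rps23, higher by 0.31, 0.32 and 0.28, and Rps16, lower at -0.29. The calls in Zfp281 KO were not made when any 1 of its 4 libraries was left out. Such fits leave 1 library in a group and called fewer of all genes too. The loss was therefore not limited to the members.

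In the polyA WT lines 21 members fell 32 h after withdrawal and 1, Rpl10l, rose. The median log2 change of the 84 genes in WT was -0.28, against 0.01 over all genes, with 82 of 84 below 0. The calls lower made up 25% of the members, against 17.8% of all tested genes, and the call higher 1.19%, against 17.9% (edgeR). In the same comparison all 8 markers of the naive state were lower, with a median of -3.57, and in ribo-depleted WT 7 of 8, with a median of -2.70. The summed level of the 84 genes was lower at 32 h in each of the 8 polyA lines. In Ehmt1_WT it went from 50616 to 36500 CPM, a log2 change of -0.47 or -27.9%, and in Zic2_WT from 40041 to 38022 CPM, a log2 change of -0.07. The log2 changes of Ehmt1_KO1 and Ehmt1_KO2 were -0.26 and -0.20, those of Zic2_KO1 and Zic2_KO2 were -0.13 and -0.14, and those of Ehmt1/Zic2_KO1 and Ehmt1/Zic2_KO2 were -0.14 and -0.06. In bulk RNA of this kind, fewer cells of a type and less RNA per cell cannot be told apart. In the ribo-depleted kit the summed level changed by 0.00 in WT, 0.08 in Zfp281_WT, 0.04 in Zfp281_KO1 and 0.12 in Zfp281_KO2. The direction there turned with the scaling. As a share of all counts the 84 genes went from 3.91% to 3.72% in WT, from 3.93% to 3.98% in Zfp281_WT, from 3.90% to 3.71% in Zfp281_KO1 and from 3.86% to 3.84% in Zfp281_KO2.

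**Figure D1:**
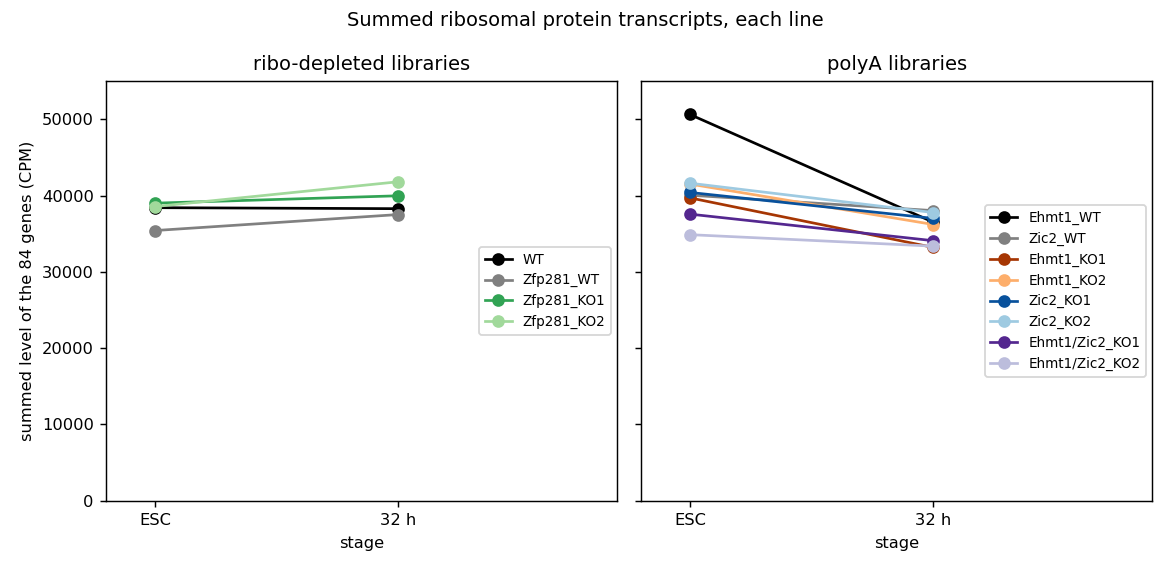
Summed level of the 84 ribosomal protein genes (CPM, vertical axis) at ESC and 32 h, 1 line per cell line, for the ribo-depleted libraries on the left and the polyA libraries on the right. All 8 polyA lines fall, and Ehmt1_WT starts at 50616 CPM, above the others, which start at 34870 to 41615 CPM.

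Rps12, a 40S protein gene, and Rps20, a protein gene of the 40S head, had the smallest adjusted p of the genes that fell. In WT Rps12 stood at 143 and 124 CPM at ESC and at 98.5 and 89.3 CPM at 32 h (-0.51 ± 0.10, edgeR adjusted p = 0.0021). Rps20 stood at 1250 and 876 CPM and then at 695 and 683 CPM (-0.63 ± 0.13, edgeR adjusted p = 0.0026). For both genes the ESC and 32 h libraries did not overlap, and the calls held when any 1 of the 4 WT libraries was left out (-0.62 to -0.40 for Rps12 and -0.87 to -0.35 for Rps20). Both were also called lower in Ehmt1 KO (-0.38 and -0.41) and in Zic2 KO (-0.30 and -0.47), where Rps20 went from 925 and 987 CPM to 689 and 687 CPM. The 60S genes Rpl10a, Rpl32 and Rpl22 fell by 0.39, 0.40 and 0.36 on the log2 scale in WT. The X-linked genes Rpl36a and Rps4x fell by 0.45 and 0.31, and Rps4x went from 1462 and 1192 CPM to 1052 and 1095 CPM. In the ribo-depleted WT libraries Rps12 went from 199 and 193 CPM to 182 and 167 CPM, and Rps20 from 619 and 572 CPM to 560 and 471 CPM. Neither passed the test there.

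The genes of the P stalk, which recruits elongation factors to the 60S subunit, did not pass the test in either kit after withdrawal. In polyA WT Rplp1 went from 963 and 740 CPM to 471 and 713 CPM (-0.53 ± 0.27, edgeR adjusted p = 0.15), with the 32 h libraries far apart. Rplp2 went from 600 and 415 CPM to 292 and 396 CPM (-0.56 ± 0.26, edgeR adjusted p = 0.11). In ribo-depleted WT Rplp1 held 1034 and 1024 CPM and then 994 and 993 CPM. Of the members linked to p53, Rpl5, Rpl11, Rpl23 and Rpl26 were not called after withdrawal in any genotype. Rpl5 changed by -0.26 ± 0.10 in polyA WT (edgeR adjusted p = 0.065).

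Fewer members were called in the KO lines of the polyA kit. Ehmt1 KO had 0 members higher, against 11.5% of all genes, and 4 lower (Rps12, Rps16, Rps20 and Rpl36a), against 11%, with a median of -0.22. Zic2 KO had 0 higher, against 15.7%, and 2 lower (Rps20 and Rps12), against 15.2%, with a median of -0.13. Ehmt1/Zic2 KO had 0 called in either direction, against 14.4% of all genes called in edgeR. There 9 members had an unadjusted p under 0.05, 4 were called by DESeq2, and the median was -0.12. With the line as a replicate block the numbers rose to 2 higher and 37 lower in WT, 0 and 21 in Ehmt1 KO, 1 and 9 in Zic2 KO and 0 and 9 in Ehmt1/Zic2 KO. All calls of these fits took in 47.1%, 35.2%, 42.5% and 27.5% of all genes, against 46.4%, 25%, 11.9% and 10.7% of the members.

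The size of the fall in WT rested on 1 library, Ehmt1_WT at ESC. At that stage Zic2_WT was lower than Ehmt1_WT for 82 of the 84 genes, with a median log2 ratio of -0.34. At 32 h the same pair had a median of 0.06. The ESC difference ran with transcript length in the genes outside the class: the median log2 ratio was -0.35 for transcripts under 1000 bases, -0.24 from 1000 to 2000, -0.07 from 2000 to 4000 and 0.20 over 4000 bases. The members with the largest differences were Rpl39l at -1.05, Rps4l at -0.56, Rplp2 at -0.53 and Rps20 at -0.51. The part of this library difference in the results was not tested beyond leaving libraries out. Without Ehmt1_WT at ESC the WT median was -0.11, against 0.03 over all genes, and without Zic2_WT at ESC it was -0.45, against 0.00. Within Zic2_WT alone the median change at 32 h was -0.08, with 59 of 84 lower, while other genes under 1000 bases stood at -0.01. In Ehmt1_WT the median was -0.44, and other short genes stood at -0.44 too. In Ehmt1_KO1 and Ehmt1_KO2 the members stood at -0.26 and -0.20 and other short genes at -0.21 and -0.06.

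**Figure D2:**
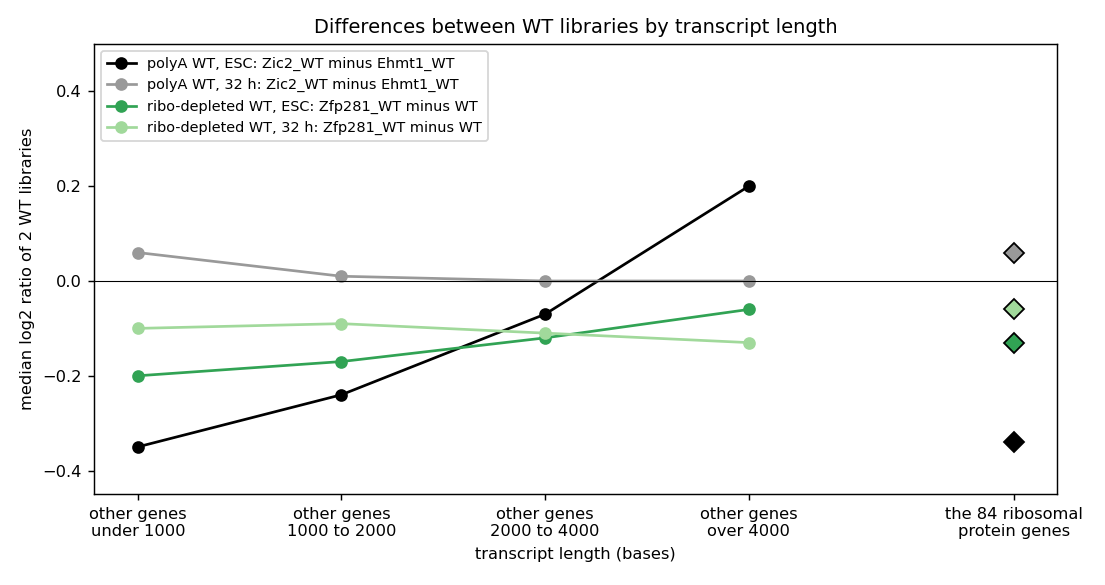
Median log2 ratio of the WT libraries of a kit and stage (vertical axis) for other genes by transcript length in bases (circles) and for the 84 ribosomal protein genes (diamonds). In the polyA ESC pair the ratio climbs from -0.35 for the shortest genes to 0.20 for the longest, and the ribosomal protein genes lie at -0.34, while the 32 h pair lies between 0.00 and 0.06.

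The second comparison asked how each KO differed from WT at the same stage. The largest differences were in the paralogs Rpl10l and Rpl39l, which were higher in Ehmt1 KO and Ehmt1/Zic2 KO at both stages. Ehmt1 is a histone H3 lysine 9 methyltransferase, a writer of a mark of silenced chromatin. In polyA WT Rpl10l stood at 23.3 and 28.05 CPM at ESC and at 37.4 and 39.7 CPM at 32 h. In Ehmt1 KO it stood at 148 and 158 CPM at ESC (2.57 ± 0.15, edgeR adjusted p = 3.2e-07) and at 146 and 163 CPM at 32 h (2.00 ± 0.15, edgeR adjusted p = 1.9e-06). In Ehmt1/Zic2 KO it stood at 149 and 127 CPM at ESC (2.43 ± 0.15, edgeR adjusted p = 3.8e-07) and at 138 and 138 CPM at 32 h (1.84 ± 0.15, edgeR adjusted p = 2.9e-06). Every Ehmt1 KO and Ehmt1/Zic2 KO library lay above every WT library. In Zic2 KO Rpl10l stood at 34.2 and 45.2 CPM at ESC (0.63 ± 0.15, edgeR adjusted p = 0.096) and at 35.9 and 42.5 CPM at 32 h, and neither passed the test. It also rose with 2i withdrawal in polyA WT (0.59 ± 0.15, edgeR adjusted p = 0.0077), the only member called higher there.

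Rpl39l followed the same order with larger ratios from a lower base. At ESC the WT libraries held 9.27 and 4.21 CPM, and at 32 h 13.1 and 7.96 CPM. Ehmt1 KO held 172 and 102 CPM at ESC (4.34 ± 0.39, edgeR adjusted p = 7e-06) and 148 and 103 CPM at 32 h (3.58 ± 0.37, edgeR adjusted p = 2.7e-05). Ehmt1/Zic2 KO held 200 and 151 CPM at ESC (4.70 ± 0.39, edgeR adjusted p = 3.9e-06) and 178 and 144 CPM at 32 h (3.94 ± 0.37, edgeR adjusted p = 1e-05). The lines of each KO differed from each other, yet all 8 of these libraries lay above all WT libraries. Zic2 KO held 12.2 and 16.9 CPM at ESC (1.11 ± 0.38, edgeR adjusted p = 0.30) and 18.9 and 22.5 CPM at 32 h (0.98 ± 0.36, edgeR adjusted p = 0.36). Both Zic2 KO libraries of a stage lay above both WT libraries, but the difference did not pass the test. The calls of Rpl10l and Rpl39l in Ehmt1 KO and Ehmt1/Zic2 KO held with every library left out in turn, from 1.79 to 2.74 for Rpl10l and from 3.27 to 5.38 for Rpl39l.

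In the libraries labelled Zfp281 KO both paralogs were higher too. Rpl10l stood at 35.3 and 20.04 CPM in WT at ESC and at 82.5 and 84.7 CPM in Zfp281 KO (1.58 ± 0.25, edgeR adjusted p = 0.0056). At 16 h, where the 4 libraries were normalised on their own, it stood at 62.3 and 56.7 CPM in WT and 92.5 and 106 CPM in Zfp281 KO (0.74 ± 0.10, edgeR adjusted p = 0.0012). At 32 h it stood at 47.2 and 34.0 CPM in WT and 111 and 115 CPM in Zfp281 KO (1.48 ± 0.24, edgeR adjusted p = 0.003). At each of the 3 stages both KO libraries lay above both WT libraries. Rpl39l stood at 5.17 and 2.84 CPM in WT and 12.8 and 13.6 CPM in Zfp281 KO at ESC (1.67 ± 0.32, edgeR adjusted p = 0.011). The log2 differences were 1.54 ± 0.26 at 16 h (edgeR adjusted p = 0.0078) and 1.75 ± 0.30 at 32 h (edgeR adjusted p = 0.0033). The line Zfp281_WT held the lowest value of both genes at all 3 stages. The 16 h and 32 h calls held with any 1 library left out, whereas at ESC the call of each gene was lost in 2 of 4 such fits, with adjusted p up to 0.071 for Rpl10l and 0.15 for Rpl39l. Whether the differences of the 3 KO genotypes differ in size across kits was not tested.

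**Figure D3:**
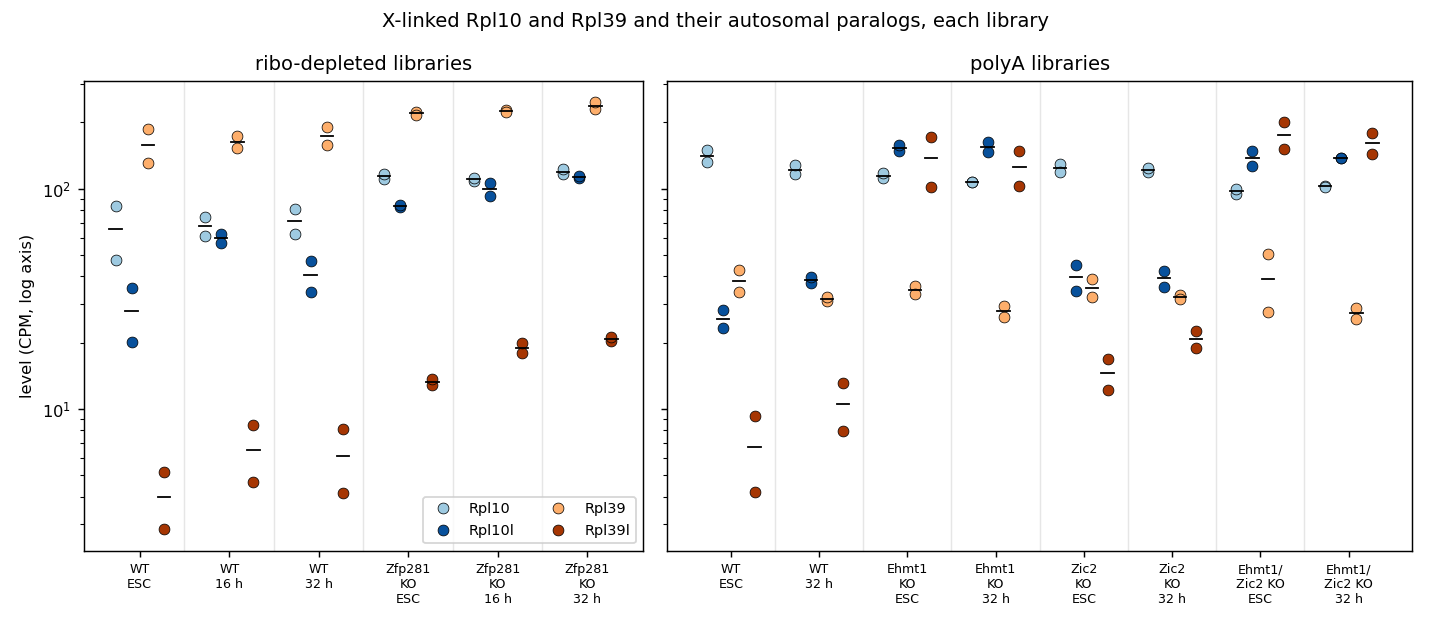
Level of Rpl10, Rpl10l, Rpl39 and Rpl39l in each library (CPM, log axis), with short bars for the group means, in the ribo-depleted kit on the left and the polyA kit on the right. In Ehmt1 KO and Ehmt1/Zic2 KO Rpl10l (127 to 163 CPM) lies above Rpl10 (95.1 to 118 CPM), and Rpl39l (102 to 200 CPM) lies above Rpl39. The level of Rpl10 is uncertain because it shares reads with other genes.

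Set against the parent gene per length of transcript, the ratio of Rpl10l to Rpl10 was 0.130 and 0.177 in polyA WT at ESC and 0.269 and 0.259 at 32 h. In Ehmt1 KO it was 1.11 and 1.12 at ESC and 1.14 and 1.26 at 32 h, and in Ehmt1/Zic2 KO 1.31 and 1.07 at ESC and 1.12 and 1.13 at 32 h. In all 8 of these libraries the counted level of the paralog per length was above that of the parent. Zic2 KO lay at 0.221 and 0.316 at ESC and 0.251 and 0.287 at 32 h. The ratio of Rpl39l to Rpl39 was 0.165 and 0.0946 in WT at ESC, 3.60 and 2.34 in Ehmt1 KO and 3.02 and 4.16 in Ehmt1/Zic2 KO. In the ribo-depleted kit Rpl39l stayed far below Rpl39 in every library, at a ratio of 0.0166 to 0.0211 in WT and 0.0437 to 0.0481 in Zfp281 KO at ESC. Ratios between these genes depend on how each kit captures short transcripts, which was not tested. They also depend on how shared reads were counted, since 14.6% of the Rpl10 stretches are unique, against 92.4% for Rpl10l. Whether Rpl10l truly exceeded Rpl10 is therefore uncertain.

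Over all 84 members, the medians in the libraries labelled Zfp281 KO lay near 0. At ESC 7 members were called higher and 0 lower, against 8.5% and 5.3% of all genes, and the median was 0.10, against -0.04 over all genes. At 32 h 15 were called higher and 0 lower, against 16.6% and 11.9%, with a median of 0.13, against -0.07. At 16 h 5 were called higher and 1 lower, against 15.3% and 13.3%, and the median was -0.01, which turned to 0.04 with total counts as the only scaling. Rpl10l and Rpl39l are in these counts, and the other 82 members had 5 higher at ESC, 13 higher at 32 h, and 3 higher and 1 lower at 16 h. That scaling gave 6 higher and 0 lower at 16 h, and 12 higher and 2 lower at 32 h with a median of 0.00. Without the line Zfp281_WT the median was 0.00 at ESC and 0.08 at 32 h, against 0.01 and 0.02 over all genes. In the main fit, other genes grouped by transcript length had medians of 0.07 to 0.12 at ESC and 0.09 to 0.15 at 32 h. The medians of the members lay within these ranges. The length groups hold only part of the genes tested.

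Rpl21, a 60S gene that shares stretches with 82 other genes, had the smallest adjusted p at 32 h. It stood at 24.9 and 23.8 CPM in WT and at 37.7 and 35.8 CPM in Zfp281 KO (0.59 ± 0.08, edgeR adjusted p = 0.00071). Both KO libraries lay above both WT libraries, and the call held with any 1 library left out (0.51 to 0.63). Rps12 stood at 182 and 167 CPM in WT and 231 and 226 CPM in Zfp281 KO at 32 h (0.39 ± 0.08, edgeR adjusted p = 0.0044). Rps4l, the transcribed pseudogene, was higher by 0.29 at ESC and by 0.41 at 32 h. Rps29, a 40S gene, stood at 209 and 187 CPM in WT and 255 and 273 CPM in Zfp281 KO at ESC (0.42 ± 0.08, edgeR adjusted p = 0.011). Rpl36al was higher by 0.35 at ESC and 0.34 at 32 h. Of the 4 fits at ESC with a library left out, the call was lost in 2 for Rps29 (adjusted p up to 0.33), in 3 for Rps4l (up to 0.49) and in 3 for Rpl36al (up to 0.33). At 32 h Rps12, Rps4l and Rpl36al each lost theirs in 2 of 4. The single member called lower, at 16 h, was Rpl22l1, a paralog of Rpl22 (38.2 and 43.7 CPM in WT, 30.5 and 33.3 CPM in Zfp281 KO, -0.36 ± 0.11, edgeR adjusted p = 0.039), a call lost in 3 of 4 such fits. Rpl22 itself held 921 and 1075 CPM in WT and 967 and 928 CPM in Zfp281 KO at that stage and did not pass the test.

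Of the 4 X-linked members Rpl10, Rpl36a, Rpl39 and Rps4x, the first 3 were higher in Zfp281 KO at 16 h. Rpl10 held 74.5 and 60.9 CPM in WT at 16 h and 108 and 112 CPM in Zfp281 KO (0.70 ± 0.11, edgeR adjusted p = 0.002). Rpl39 held 152 and 174 CPM and then 227 and 223 CPM (0.46 ± 0.09, edgeR adjusted p = 0.0057), and Rpl36a held 538 and 511 CPM and then 690 and 640 CPM (0.34 ± 0.09, edgeR adjusted p = 0.018). For each of these 3 genes both KO libraries lay above both WT libraries. The calls of Rpl10 and Rpl39 held with any 1 library left out, and that of Rpl36a was lost in 2 of 4 such fits (adjusted p up to 0.23). The medians of the 4 X-linked members were 0.44 at ESC, 0.40 at 16 h and 0.39 at 32 h, with 0, 3 and 1 called. At ESC Rpl10 held 83.0 and 47.5 CPM in WT and 111 and 117 CPM in Zfp281 KO, with the WT lines far apart. Other X-linked genes moved with them: their median differences were 0.41, 0.36 and 0.25 at ESC, 16 h and 32 h. Against the mean of the libraries of a stage, other X-linked genes lay at -0.42, -0.26 and -0.38 in Zfp281_WT, at -0.08, -0.08 and -0.03 in WT, and at 0.16 to 0.27 in the KO lines. The part of the X chromosome as a whole in the result for Rpl10, Rpl36a and Rpl39 was not tested.

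In the polyA kit 40 of the 84 members were lower in Ehmt1/Zic2 KO at ESC, 23 of the 60S and 17 of the 40S subunit, and 2 were higher (Rpl10l and Rpl39l). These calls by edgeR made up 47.6% and 2.38% of the members, against 18.5% and 20.9% of all tested genes. The median was -0.31, against 0.00 over all genes. Rps27, a 40S gene with few unique stretches, held 236 and 200 CPM in WT and 122 and 131 CPM in Ehmt1/Zic2 KO (-0.79 ± 0.16, edgeR adjusted p = 0.0021). Rps4x held 1462 and 1192 CPM in WT and 880 and 828 CPM in the KO (-0.64 ± 0.10, edgeR adjusted p = 3e-04). Rpl28, whose start is shown above, held 305 and 229 CPM and then 168 and 176 CPM (-0.63 ± 0.11, edgeR adjusted p = 0.001). In each of these 3 genes the groups did not overlap, and the WT library of Ehmt1_WT was the highest. Rpl4 held 4291 and 3652 CPM in WT and 2971 and 2914 CPM in the KO (-0.43 ± 0.08, edgeR adjusted p = 0.0017). Rps3, a 40S protein gene at the mRNA entry, held 2546 and 2029 CPM and then 1585 and 1571 CPM (-0.54, edgeR adjusted p = 0.0022). The parent gene Rpl10 fell by 0.54 on the log2 scale (edgeR adjusted p = 0.00075).

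Among the members with assigned roles, Rplp0, the base of the P stalk, held 1533 and 1266 CPM in WT and 970 and 1079 CPM in Ehmt1/Zic2 KO at ESC (-0.45 ± 0.13, edgeR adjusted p = 0.015). Rplp1 and Rplp2 changed by -0.45 ± 0.27 and -0.58 ± 0.26 and did not pass the test. Of the members linked to p53, Rpl5 was lower (-0.31 ± 0.10, edgeR adjusted p = 0.031), while Rpl11 at -0.20, Rpl23 at 0.23, Rpl26 at 0.44 and Rps27l at 0.10 did not pass. Members with a pyrimidine run at the start had a median of -0.23 with 10 of 30 lower, and those without had -0.35 with 22 of 34 lower. Members with at least 50% unique stretches had a median of -0.35 with 21 of 44 lower, and the rest had -0.30 with 19 of 40. At 32 h 14 members were lower and 2 higher in Ehmt1/Zic2 KO, against 17.8% and 21.4% of all genes, with a median of -0.13. Rps4x, Rpl4, Rps3, Rpl28 and Rpl5 were among those lower at both stages, and Rpl4 held 3459 and 3429 CPM in WT and 2649 and 2741 CPM in the KO at 32 h. With total counts as the only scaling the 32 h split was 7 lower and 7 higher. Leaving out any 1 library at 32 h brought the calls to 5 to 8.

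Ehmt1 KO had fewer calls. At ESC 5 members were called lower (Rps4x, Rpl4, Rpl10, Rps3 and Rps12) and 2 higher (Rpl10l and Rpl39l), against 12.1% and 14.8% of all genes, and the median was -0.15. With total counts as the only scaling 4 were lower and 3 higher. At 32 h 3 were lower (Rps4x, Rpl7l1 and Rpl4) and 3 higher (Rpl10l, Rpl39l and Rpl15), against 11.4% and 15.1%, and the median was -0.09. In Ehmt1 KO at ESC Rps4x held 1027 and 1020 CPM (-0.38 ± 0.10, edgeR adjusted p = 0.012), below both WT libraries, and at 32 h it held 892 and 828 CPM. In Zic2 KO edgeR called 0 members at ESC, against 0.274% of all genes, where 9 had an unadjusted p under 0.05 and DESeq2 called 1. At 32 h edgeR and DESeq2 called 0, against 0.0766% of all genes, and 2 had an unadjusted p under 0.05. The medians in Zic2 KO were -0.13 at ESC and 0.01 at 32 h. These 3 genotypes share their WT libraries, so their values are not independent of each other.

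**Figure D4:**
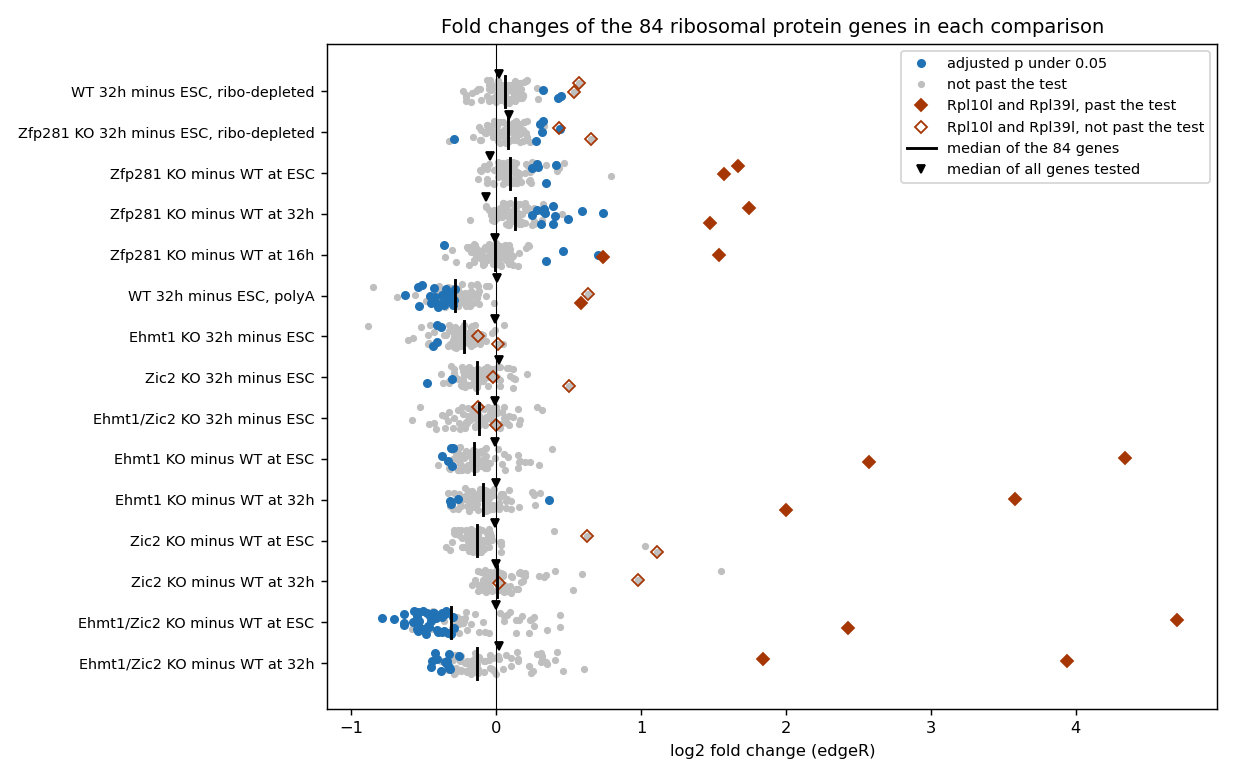
Log2 fold change (edgeR, horizontal axis) of each of the 84 ribosomal protein genes in 15 comparisons, with members past an adjusted p of 0.05 in blue, Rpl10l and Rpl39l as diamonds (filled where past the test), a bar for the median of the 84 genes and a triangle for the median of all genes tested. The diamonds of Ehmt1 KO and Ehmt1/Zic2 KO lie between 1.84 and 4.70, and 40 of the other members of Ehmt1/Zic2 KO at ESC lie below 0 past the test.

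The ESC comparisons rested on the WT library Ehmt1_WT to different degrees. Without it the median in Ehmt1/Zic2 KO was -0.14, against 0.02 over all genes, and without Zic2_WT it was -0.44, against 0.03. Rps4x, Rpl10, Rpl4, Rps12, Rpl28, Rps27, Rps3, Rpl8, Rpsa, Rpl22 and Rpl18 were among those that stayed called with any 1 of the 4 libraries left out. With only the groups compared in the fit, so that the spread came from 4 libraries, 7 members were called at ESC and 36 at 32 h. The same fits called 3386 and 6519 of all genes. In Ehmt1 KO the ESC median turned to 0.04 without Ehmt1_WT, and in Zic2 KO to 0.04. Other genes under 1000 bases had a median of -0.21 in Ehmt1/Zic2 KO at ESC and those over 4000 bases 0.10. The fibroblast markers summed to 19.4 and 22.9 CPM in Ehmt1/Zic2 KO and 7.61 and 9.97 CPM in WT at ESC. Of the 5 ESC-defining genes 3 were lower and 1 higher (median -0.54). Of 7 primitive endoderm markers 2 were higher and 1 lower (median 1.13), of 8 naive-state markers 3 were higher and 0 lower, and of 6 trophoblast markers 0 were higher and 1 lower. The part of length and of these markers in the lower calls was not tested.

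Place on a chromosome also ran with the values. Other genes of chromosome 11 lay above the mean of their stage by a median of 0.26 and 0.28 (log2, ESC and 32 h) in Ehmt1_KO1, 0.22 and 0.28 in Ehmt1/Zic2_KO1 and 0.23 and 0.23 in Ehmt1/Zic2_KO2, and below it, at -0.18 to -0.09, in the other 5 polyA lines. The 7 members on chromosome 11 lay at 0.28 and 0.09, at 0.33 and 0.22, and at 0.00 and 0.22 in those 3 lines. None of these 7 was called lower in Ehmt1/Zic2 KO at ESC, where 47.6% of all members and 18.5% of all genes were. The part of the chromosome in this was not tested. Rpl26 held 559 and 447 CPM in WT, 633 in Ehmt1_KO1 and 435 in Ehmt1_KO2, and 770 and 595 CPM in Ehmt1/Zic2 KO at that stage, so the Ehmt1 KO lines fell on either side of WT. Chromosome 16, which carries Rpl39l, stood at 0.38 and 0.40 in Ehmt1/Zic2_KO2 alone. At ESC and 32 h Rpl39l held 172 and 148 CPM in Ehmt1_KO1 and 102 and 103 CPM in Ehmt1_KO2. It held 200 and 178 CPM in Ehmt1/Zic2_KO1 and 151 and 144 CPM in Ehmt1/Zic2_KO2. The part of chromosome 16 in the level of Rpl39l was not tested. These chromosomes were picked after their medians were seen. What underlies these shifts was not tested.

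**Figure D5:**
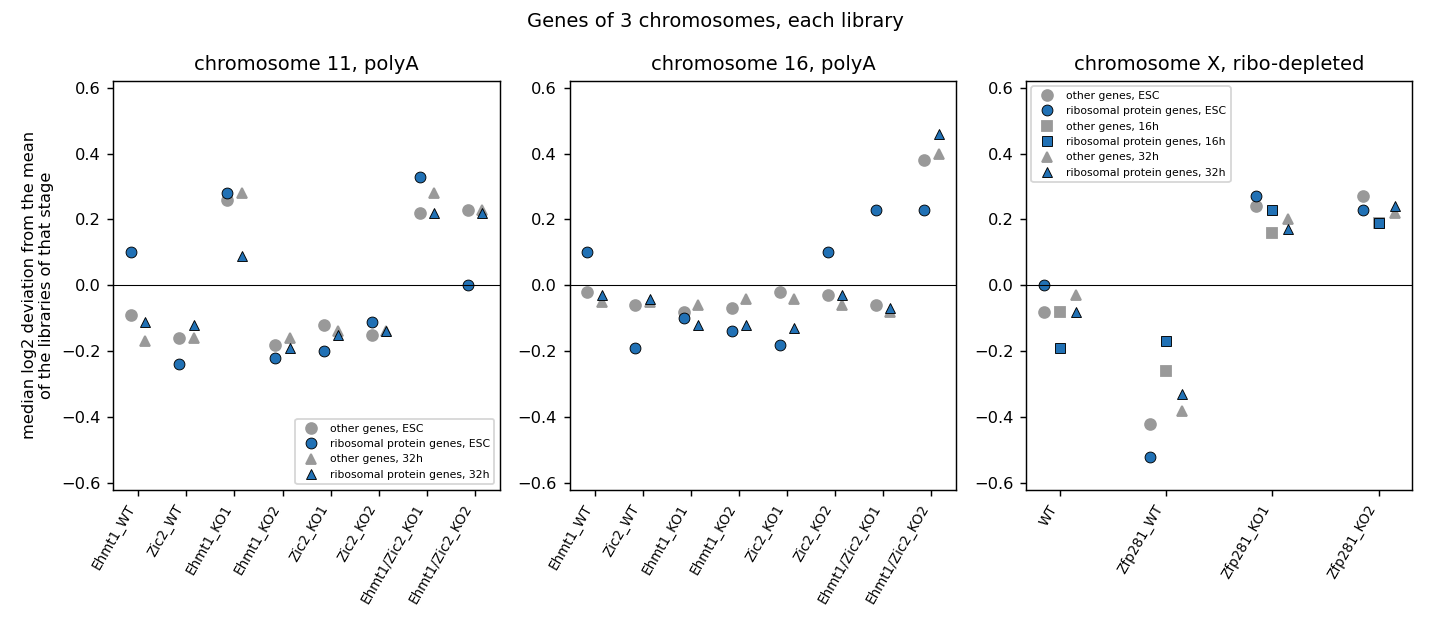
Median log2 deviation from the mean of the libraries of a stage (vertical axis) for ribosomal protein genes (blue) and other genes (grey) of chromosomes 11 and 16 in each polyA line and of chromosome X in each ribo-depleted line, with circles for ESC, squares for 16 h and triangles for 32 h. Other genes of chromosome 11 lie above 0 in Ehmt1_KO1 and both Ehmt1/Zic2 KO lines (0.22 to 0.28), and other genes of chromosome X lie lowest in Zfp281_WT (-0.42 to -0.26).

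The last comparison asked whether a KO changed the response to withdrawal itself, as the difference between the 32 h changes of KO and WT. By edgeR 0 members were called for Zfp281, against 4.15% of all genes, 0 for Ehmt1, against 1.86%, 0 for Zic2, against 0%, and 0 for Ehmt1/Zic2, against 5.29%. The numbers with an unadjusted p under 0.05 were 1, 1, 1 and 9, and DESeq2 called 0 in each. With the line as a replicate block 1, 2, 0 and 3 were called, against 13.7%, 8.69%, 0.319% and 16.7% of all genes. Rpl10l had the smallest p in the 3 polyA tests, with differences of -0.57 ± 0.20 for Ehmt1 KO (edgeR adjusted p = 0.20), -0.61 ± 0.21 for Zic2 KO (edgeR adjusted p = 0.94) and -0.59 ± 0.20 for Ehmt1/Zic2 KO (edgeR adjusted p = 0.11). These share the rise of Rpl10l in the WT lines.

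Other genes of the translation machinery were read from the same fits. Of 44 ribosome biogenesis genes, which build the subunits, 12 were higher and 1 lower at 32 h in ribo-depleted WT (median 0.14), and 8 higher and 1 lower in polyA WT (median 0.18). The higher calls were 27.3% and 18.2% of the list, against 15% and 17.9% of all genes. Rrp12, an export factor of the subunits, was among the latter (0.48 ± 0.10, edgeR adjusted p = 0.0022), and Nop10, a part of the box H/ACA particles, among the former (0.60 ± 0.09, edgeR adjusted p = 0.0011). Of 78 genes of the mitochondrial ribosome 15 were higher and 0 lower in ribo-depleted WT, and 1 higher and 2 lower in polyA WT, with the higher calls at 19.2% and 1.28% of the list. Of 19 other mRNAs with a TOP start, such as that of the elongation factor Eef1a1, 0 were higher and 3 lower in polyA WT (median -0.17). The lower calls were 15.8% of that list, against 17.8% of all genes, with Eef1a1 at -0.34 ± 0.09 (edgeR adjusted p = 0.0082). In Ehmt1/Zic2 KO at ESC 12 of these 19 were lower and 1 higher (median -0.36), and the initiation factor gene Eif3h was at -0.57 ± 0.11 (edgeR adjusted p = 0.0013). In that comparison 10 of 44 biogenesis genes were lower and 2 higher, and 13 of 78 mitochondrial ribosome genes were lower and 4 higher. The lower calls were 63.2% of the TOP list, 22.7% of the biogenesis list and 16.7% of the mitochondrial list, against 18.5% of all genes. In the libraries labelled Zfp281 KO, Myc, a regulator of ribosome genes, was higher at ESC (1.21 ± 0.16, edgeR adjusted p = 0.0013). There 3 of 7 genes of its family were higher (42.9%), against 8.5% of all genes.

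By likeness of pattern over the libraries, the genes closest to the mean of the 84 were Sec61g, Wdr77, Mcph1, Selenok and Pomgnt1 over the 8 ribo-depleted libraries at ESC and 32 h, at Pearson correlations of 0.986 to 0.993. Over the 16 polyA libraries they were Rpl37rt, Nop53, Ndufc1, Arpc4 and Mapkapk5, at 0.913 to 0.940. These describe the log2 CPM of 7141 and 7629 genes of at least 20 CPM, and the libraries share lines and depth.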

How the data were processed

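The deposited tables hold raw read counts per Entrez gene for 28 libraries, in the unit the authors gave them. GRCm38 and mm10 stand as the build and edgeR as a tool per the submitters' processing notes. For aligner, counter, annotation and strand setting the entry is not given in the sources used here. All columns matched a library label, and 24061 of 24116 gene IDs had a symbol. The lines named WT were placed with the ribo-depleted kit from the library protocol in the labels. Tests ran in edgeR 4.0.16 (limma 3.58.1, R 4.3.3) with filterByExpr (minimum count 10, minimum total 15), TMM scaling and the robust quasi-likelihood test, in 3 fits: 8 ribo-depleted ESC and 32 h libraries (18971 genes), 4 libraries at 16 h (15139) and 16 polyA libraries (15667). Benjamini-Hochberg adjustment ran over all genes of a fit and a call is an adjusted p under 0.05. CPM values are TMM-scaled within a fit. Fold changes are log2, with the standard error taken from the test statistic.

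Members and gene lists were chosen with earlier results of these data known. Named genes are, per comparison, up to 8 called members in each direction by adjusted p (up to 3 where few passed), the paralogs, X-linked, P stalk and p53-linked members, the highest and lowest 4 by level, up to 4 with the largest WT differences, up to 3 of each other list and 5 like genes per kit. The same line was sampled at each stage, so the line is the replicate block. Deviations of a line at both stages correlated at 0.47 and 0.27 in ribo-depleted WT and Zfp281 KO, at 0.09 in polyA WT, and at 0.67, 0.42 and 0.64 in the polyA KO lines of Ehmt1, of Zic2 and of both. Alternatives were DESeq2 1.42.0, DESeq2 size factors, total counts, TMM without the members, no filter, only the groups compared, the block, each library or the line Zfp281_WT left out, and other membership minimums. The fits were tested on simulated data. Transcript lengths and shared stretches came from GENCODE M21, and start windows and promoters from RefSeq (GRCm38.p6), which held 64 of the 84 members.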

Additional observations from a re-analysis of the deposited data

Results flagged for a closer look

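The summed level of the ribosomal protein genes moved in opposite directions at 32 h in 2 sets of lines, as scaled by TMM. In both Zfp281 KO lines of the ribo-depleted kit it was higher at 32 h, with a mean log2 change of 0.08, and in both WT lines of the polyA kit it was lower, with a mean of -0.27. The group means went from 38776 ± 317 to 40884 ± 1300 CPM (SD, n = 2 lines) in Zfp281 KO and from 45328 ± 7480 to 37261 ± 1080 CPM in polyA WT. The rise in the Zfp281 KO lines rests on TMM scaling, since as a share of all counts the genes went from 3.90% to 3.71% in Zfp281_KO1 and from 3.86% to 3.84% in Zfp281_KO2. Within the ribo-depleted kit the log2 change was 0.00 in WT and 0.08 in Zfp281_WT, beside 0.04 in Zfp281_KO1 and 0.12 in Zfp281_KO2. Within the polyA kit the summed level fell in all 8 lines. The difference between the 2 sets of lines was not tested, and kit, line and genotype cannot be told apart in it.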

How the results depend on the processing

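Unless a number is called a median, the values here are numbers of members called at an adjusted p under 0.05. The number of all genes called moved with the setting too, so these numbers alone do not describe the members. Fits with a Zfp281 KO library left out called fewer of all genes than the full fits at every stage. With only the groups compared, 8754 genes were called for Zfp281 KO at 32 h against ESC and 6519 for Ehmt1/Zic2 KO against WT at 32 h. No log2 fold change of a named member that was called turned its direction under any alternative tried. Small changes that did not pass could turn. For Rps27l in Ehmt1/Zic2 KO at ESC the KO mean of 168 CPM lay between the WT libraries (178 and 136 CPM). Membership from 1 or from 20 CPM left every number within 1.5 times and every median within the spread. The cause of the changes below was not tested, apart from fewer samples or genes where a setting removes them. With DESeq2 the numbers were 9 for Ehmt1 KO at 32 h against ESC, 4 for Zic2 KO and 4 for Ehmt1/Zic2 KO, and 1 for Zic2 KO against WT at ESC, and the median of Zfp281 KO at 32 h against ESC was 0.03. With DESeq2 size factors they were 0 for ribo-depleted WT at 32 h against ESC, 1 for Zfp281 KO with a median of 0.03, 3 for Zfp281 KO against WT at ESC and 8 at 32 h. With TMM factors from the other genes they were 10 for Ehmt1 KO at 32 h against ESC, 9 for Zic2 KO with a median of -0.17 and 2 for Ehmt1/Zic2 KO. With total counts they were 9 for ribo-depleted WT and 10 for Ehmt1 KO at 32 h against ESC. The medians with total counts were -0.03 for Zfp281 KO at 32 h against ESC, 0.02 for Zfp281 KO against WT at ESC, 0.00 at 32 h, where the median of all genes was -0.21 in place of -0.07, and -0.07 for Ehmt1/Zic2 KO against WT at 32 h. For the difference in response of Zfp281 KO the median turned from 0.02 to -0.03.

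With no filter on low counts the numbers were 0 for ribo-depleted WT at 32 h against ESC (median -0.03), 0 for Zfp281 KO (median -0.01), 3 for Zfp281 KO against WT at ESC, 5 at 32 h (median 0.18), 1 for Zic2 KO at 32 h against ESC and 4 for Ehmt1 KO against WT at ESC. With only the groups compared in the fit they were 0 for ribo-depleted WT at 32 h against ESC, 29 for Zfp281 KO (median 0.01), 0 for Ehmt1 KO and 36 for Zic2 KO. Against WT they were 2 for Zfp281 KO at ESC, with a median of 0.05 for Zfp281 KO at 32 h, 2 for Ehmt1 KO at ESC, 1 for Zic2 KO at 32 h, and 7 at ESC and 36 at 32 h for Ehmt1/Zic2 KO. Without the line Zfp281_WT they were 33 for ribo-depleted WT at 32 h against ESC (median -0.06), 22 for Zfp281 KO against WT at ESC (median 0.00), 12 at 16 h and 31 at 32 h (median 0.08), and 8 for the difference in response. A line left out this way gives a fit in which a lone library is assumed to vary like the other groups.

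With the line as a replicate block the numbers were 28 in ribo-depleted WT, 29 in Zfp281 KO, 39 in polyA WT, 21 in Ehmt1 KO, 10 in Zic2 KO and 9 in Ehmt1/Zic2 KO at 32 h against ESC. For the difference in response the block gave 1 for Zfp281 KO, 2 for Ehmt1 KO and 3 for Ehmt1/Zic2 KO.

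With 1 library left out in turn, the numbers at 32 h against ESC ran from 2 to 22 in ribo-depleted WT (medians -0.08 to 0.13), were 0 in every fit for Zfp281 KO (-0.01 to 0.02), and ran from 2 to 50 in polyA WT (-0.45 to -0.11), 0 to 9 in Ehmt1 KO, 0 to 1 in Zic2 KO (-0.17 to -0.11) and 0 to 15 in Ehmt1/Zic2 KO. For Zfp281 KO against WT they ran from 0 to 56 at ESC (-0.01 to 0.30), 4 to 33 at 16 h and 3 to 15 at 32 h, and 0 to 7 for the difference in response. For Ehmt1 KO against WT they ran from 3 to 22 at ESC (-0.28 to 0.04) and 2 to 4 at 32 h (-0.19 to -0.01). For Zic2 KO against WT they ran from 0 to 1 at ESC (-0.26 to 0.04), with medians of -0.02 to 0.06 at 32 h. For Ehmt1/Zic2 KO against WT they ran from 16 to 53 at ESC and 5 to 8 at 32 h (-0.21 to -0.09), and 0 to 6 for the difference in response. With 2 lines a group, the precision of every value is limited by the number of lines, and members under 20 CPM, such as Rpl39l in WT, also by their counts.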
